A study of Mus musculus with 6 samples.

Results

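Border macrophages line the meninges, the choroid plexus and the blood vessels of the brain, and they carry lectins and scavenger receptors that parenchymal microglia largely lack. The 10 genes described here encode such receptors and were taken by symbol from the 32285 genes in the deposited matrices. They are Mrc1, Cd163, Lyve1, Mgl2, Clec10a, Cd209a, Cd209b, Cd209d, Cd209f and Cd209g. They were chosen by their UMI levels in macrophages and dendritic cells, with earlier results of these data in view, so their levels in one cell class against another are given as a description, without a test.

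Live CD45+ cells were sorted from the ventral midbrain of male Line 61 mice, which express human wild-type α-synuclein (α-Syn) in neurons from the Thy1 promoter, with the transgene on the X chromosome and littermate males from Line 61 females and B6D2F1 males. All 4 groups carried this transgene, so no group shows these cells in a mouse without it. Mice aged 12 to 15 weeks received a bilateral injection into the striatum of PBS, of α-Syn monomer, or of sonicated human α-Syn preformed fibrils (PFF), and tissue was taken 6 weeks after injection. Mice given PFF also received either vehicle (PFF + VH) or AZD1480, an inhibitor of JAK1 and JAK2, at 25 mg/kg by daily gavage (PFF + AZD1480). Cells of 3 to 5 midbrains were pooled per sample, and each condition is 1 droplet library. Antibody hashtags were present in the PFF libraries alone, 4 with VH and 5 with AZD1480. Each hashtag was taken as 1 replicate, which the labels do not state outright, so p-values measure the spread between hashtags within 1 library per arm, and library and treatment cannot be told apart.

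After the cell filter 77105 cells remained, with 14617 from PBS, 15031 from Monomer, 34436 from PFF + VH and 13021 from PFF + AZD1480. The PFF + VH library stood apart in depth, with a median of 2306 unique molecular identifiers (UMIs, 1 per captured RNA molecule) per cell against 6616 to 7028 in the others. Macrophages were cells in which UMIs of Pf4, F13a1 and Ms4a7 outnumbered those of every other marker list, and no gene described here helped to choose them. This gave 240, 176, 277 and 282 macrophages in the order above, 975 in all or 1.26% of the kept cells. Pairs of libraries shared between 51 and 163 cell barcodes, of which 1 belonged to a macrophage in both.

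The macrophage label was checked on genes outside the gate. Cbr2 was at 219 to 325 UMIs per 1000000 (CPM) in macrophages against 0.472 to 1.43 in microglia, and Dab2 at 1174 to 1587 against 9.89 to 14.6. The markers of blood endothelium, lymphatic endothelium and fibroblasts each summed to at most 14.0 CPM in macrophages, with Cldn5 at 0. Genes of the microglial check were found as well. Cx3cr1, Gpr34 and Olfml3 together reached 1511 to 1947 CPM in macrophages, highest in Monomer, against 4985 to 6223 in microglia. Most of this sum was Cx3cr1, at 1093 to 1366 CPM in macrophages, and whether it came from microglia was not tested. The microglial genes of the gate (P2ry12, Tmem119, Sall1 and Siglech) summed to 637 to 781 CPM in macrophages of the other libraries and to 1048 with PFF + VH. The T and NK list was also highest in PFF + VH macrophages, at 65.8 CPM against 4.31 in PBS, 4.83 in Monomer and 32.8 with PFF + AZD1480, as was Gm42418, a gene that overlaps ribosomal RNA, at 13170 CPM against 7286 to 9035. A doublet caller marked 1 of the 77105 cells and so had not worked, and 21.7% of PFF + VH macrophages and 35.8% of PFF + AZD1480 macrophages carried more than 1 hashtag. Among all cells of these libraries the figures were lower, at 10.7% and 12.5%. Macrophages also had more hashtag UMIs, with medians of 800 against 287 over all PFF + VH cells and 1875.5 against 742 over all PFF + AZD1480 cells. The part of RNA from other cells and of doublets in the differences between libraries was not tested.

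The receptors differ in structure. Mrc1 encodes the mannose receptor, an endocytic receptor with several C-type lectin domains. Clec10a and Mgl2 encode the macrophage galactose-type lectins, which bind terminal galactose and N-acetylgalactosamine, and the Cd209 genes encode mouse relatives of human DC-SIGN, which bind mannose and fucose. Cd163 takes up haptoglobin-bound haemoglobin through its scavenger receptor domains, and Lyve1 binds hyaluronan and is also known from lymphatic endothelium. In the brain Mrc1, Cd163 and Lyve1 serve as markers of perivascular and meningeal macrophages, and IL-4 acting through STAT6 is a known inducer of Mrc1 and of the galactose-type lectins.

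In mm10 with GENCODE M21 annotation, Mgl2 (ENSMUSG00000040950, chr11:70130329-70137550) and Clec10a (ENSMUSG00000000318, chr11:70156197-70170834) are neighbours on the plus strand. The Cd209 genes cluster on chromosome 8, with Cd209a (ENSMUSG00000031494, chr8:3743397-3748984), Cd209d (ENSMUSG00000031495, chr8:3871824-3878555), Cd209b (ENSMUSG00000065987, chr8:3917655-3926844) and Cd209f (ENSMUSG00000051906, chr8:4102787-4105835) on the minus strand and Cd209g (ENSMUSG00000079168, chr8:4134098-4137707) on the plus strand. Mrc1 (ENSMUSG00000026712, chr2:14229392-14332057) and Cd163 (ENSMUSG00000008845, chr6:124304656-124330527) lie on the plus strand and Lyve1 (ENSMUSG00000030787, chr7:110850607-110863239) on the minus strand.

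Some of these genes are near copies of each other at the 3′ end, where the library chemistry reads them. Of the 31-base words in the last 1000 bases of the Clec10a transcript, 37.3% also occur in Mgl2, and 12.99% of those of Mgl2 occur in Clec10a. Cd209f and Cd209g share 39.8% of theirs. Reads from the shared stretches cannot be assigned to 1 gene, so counts within each of these pairs are uncertain. No such word of Cd209a, Cd209b, Cd209d, Mrc1 or Lyve1 was found in another gene.

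RefSeq promoters of GRCm38.p6 were matched for 8 of the 10 genes, all but Clec10a and Lyve1. The upstream bases of Cd209f (chr8:4105836-4106014, minus strand) and Cd209g (chr8:4134486-4134651, plus strand) are shown because these genes had nearly the same pattern over cell classes. RefSeq starts Cd209g downstream of the start given above, so its bases lie inside the longer GENCODE gene. Capitals mark the bases that differ or have no partner. Of 159 aligned bases 136 were the same (85.5%), and the longest shared run was 83 bases.

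Cd209f: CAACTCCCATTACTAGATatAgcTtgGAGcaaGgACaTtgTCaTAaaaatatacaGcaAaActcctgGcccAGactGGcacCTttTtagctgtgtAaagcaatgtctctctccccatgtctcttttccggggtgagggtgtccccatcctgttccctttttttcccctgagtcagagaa

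Cd209g: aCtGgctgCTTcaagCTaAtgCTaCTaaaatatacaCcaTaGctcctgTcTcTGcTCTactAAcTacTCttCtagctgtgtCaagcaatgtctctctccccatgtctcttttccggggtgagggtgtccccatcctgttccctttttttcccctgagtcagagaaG

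The upstream bases of Mgl2 (chr11:70130107-70130328, plus strand) and Mrc1 (chr2:14229164-14229391, plus strand) are shown because these lectins differed in direction with MHC class II in 3 of the 4 libraries, in PBS within counting error, as given further on. Capitals mark AGGAAG or its reverse complement, letters that the myeloid factor PU.1 is known to bind.

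Mgl2: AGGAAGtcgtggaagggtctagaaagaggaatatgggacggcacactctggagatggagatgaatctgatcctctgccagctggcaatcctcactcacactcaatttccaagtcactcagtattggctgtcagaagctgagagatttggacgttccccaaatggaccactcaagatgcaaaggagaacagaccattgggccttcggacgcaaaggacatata

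Mrc1: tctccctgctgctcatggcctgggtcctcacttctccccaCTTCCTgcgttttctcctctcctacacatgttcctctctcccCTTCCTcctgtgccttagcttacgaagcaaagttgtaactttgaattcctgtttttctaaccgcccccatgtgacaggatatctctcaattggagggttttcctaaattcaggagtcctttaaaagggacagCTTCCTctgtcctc

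Motifs were searched on both strands of the 250 bases before each start. AGGAAG was found 1 time for Mgl2, 3 times each for Mrc1 and Cd209b and 2 times for Cd209d, and 29.5% of all 32851 promoters hold it. The palindrome bound by STAT factors, TTCNNNGAA, held by 7.02% of all promoters, and the form with 4 spacer bases, held by 5.85%, were in none of the 8 windows. TATAAA was in the windows of Cd209a, Cd209f and Cd209g, against 12.4% of all promoters. It began at -29 for Cd209f and at -43 for Cd209g, relative to the RefSeq start. The Cd209f and Cd209g sequences printed above, of 179 and 166 bases, do not reach it. Printed sequences were cut before the first annotated untranslated or coding base, while the motif search used all 250 bases.

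The mannose receptor was the most broadly detected of these genes among macrophages. A Mrc1 UMI was found in 95.8% of PBS, 93.2% of Monomer, 89.9% of VH-treated and 90.1% of AZD1480-treated PFF macrophages. With each cell thinned to 1000 UMIs, which left out 5, 2, 21 and 22 shallower macrophages, the shares were 80.4%, 78.7%, 82.0% and 73.8%, against 0.413% to 1.08% of microglia and 0% to 3.54% of T and NK cells, which should lack it. Summed over macrophages, Mrc1 was at 2588 CPM in PBS (95% Poisson interval 2504 to 2674), 2296 in Monomer (2205 to 2390), 2149 with PFF + VH (2056 to 2245) and 2375 with PFF + AZD1480 (2299 to 2454). These intervals, like all those given for libraries, cover counting error only, and no test is possible between single libraries.

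Cd163 and Lyve1 differed more between libraries. Cd163, the haemoglobin receptor, was at 478 CPM in PBS (443 to 516), 262 in Monomer (232 to 295), 414 with PFF + VH (374 to 458) and 499 with PFF + AZD1480 (464 to 535). Lyve1, the hyaluronan receptor, was at 437 CPM in PBS (403 to 473), 145 in Monomer (123 to 170), 202 with PFF + VH (174 to 233) and 603 with PFF + AZD1480 (564.4 to 643). Both genes were lowest in the Monomer library and highest in PFF + AZD1480, an order that turned with the gate. In the 30, 28, 32 and 45 macrophages without any microglial gate UMI, Cd163 was highest in PBS (640 CPM) and lowest with PFF + VH (221), and Lyve1 was at 1106 CPM in PBS against 215 with PFF + AZD1480. With the gate on thinned cells Lyve1 was lowest with PFF + VH (249 CPM, against 276 in Monomer). Macrophages with a Lyve1 UMI after thinning were 23.8%, 10.3%, 12.9% and 22.3% in the same order of libraries, against 0% to 0.0368% of microglia and 0% to 0.442% of T and NK cells, and on this measure PBS came first. No Lyve1 UMI was found in cells of the dendritic list in any library, and macrophages held 79.9% to 94.6% of all its UMIs.

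The galactose-type lectins ran in different orders. Mgl2 was at 371 CPM in PBS (339 to 404), 410 in Monomer (372 to 451), 222 with PFF + VH (193 to 255) and 492 with PFF + AZD1480 (457 to 528). Clec10a was at 422 CPM in PBS (389 to 458), 316 in Monomer (283 to 352), 511 with PFF + VH (466 to 559) and 208 with PFF + AZD1480 (185 to 232). PFF + VH was lowest in Mgl2 and PFF + AZD1480 lowest in Clec10a, here and under each of the 7 alternatives tried. The highest library depended on the gate. With the gate on thinned cells, Mgl2 was highest in Monomer (557 CPM, against 534 with PFF + AZD1480) and Clec10a in PBS (586 CPM, against 538 with PFF + VH), and without microglial UMIs PBS was highest in both, at 834 and 621 CPM. A UMI of both genes was found in 252 macrophages of the 4 libraries, which were 54.3% of the 464 with Mgl2 and 62.1% of the 406 with Clec10a.

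Among the Cd209 genes, Cd209f and Cd209g varied least between libraries with this gate, though Cd209g ranged from 48.5 to 131 CPM without microglial UMIs. Cd209f was at 253, 230, 246 and 209 CPM in PBS, Monomer, PFF + VH and PFF + AZD1480, and Cd209g at 94.8, 79.3, 74.5 and 66.8. Cd209a was at 182, 183, 152 and 112 CPM in that order. Intervals of the 4 libraries overlapped for Cd209g (79.3 to 112, 63.1 to 98.4, 57.9 to 94.3 and 54.5 to 81.1), while those of PBS and PFF + AZD1480 did not for Cd209a (160 to 206 and 95.9 to 130). Cd209b, known as SIGNR1, was at 131, 88.9, 111 and 38.0 CPM, lowest in PFF + AZD1480 (28.9 to 49.1). Cd209d had few UMIs, 24, 36, 50 and 25, or 17.2, 34.8, 54.0 and 16.4 CPM.

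**Figure D1:**
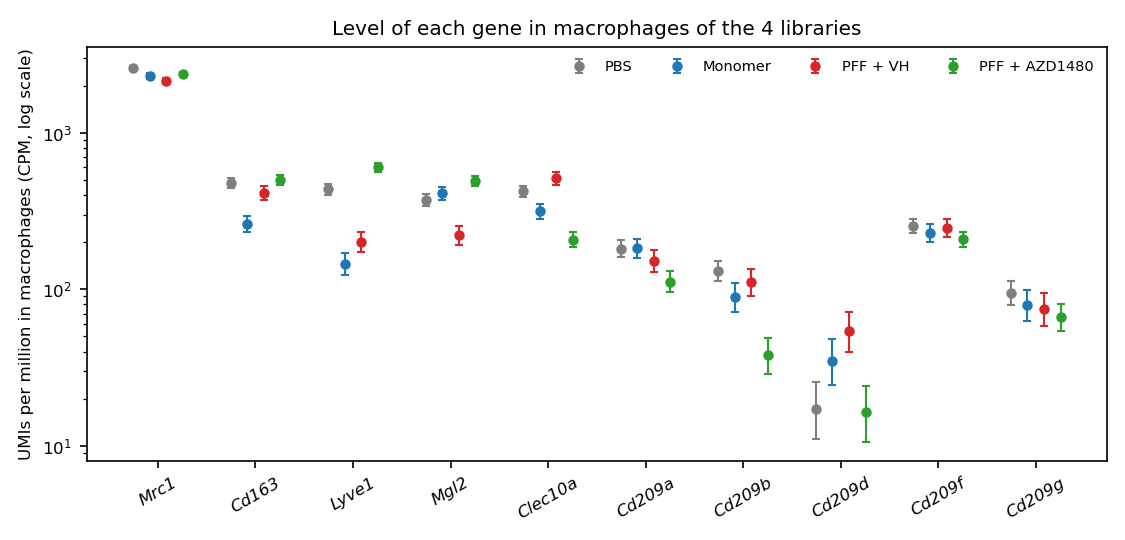
Level of each gene in macrophages as CPM (log axis), 1 point per library with its exact 95% Poisson interval. Mrc1 lies between 2149 and 2588 in the 4 libraries, while Lyve1 spans 145 to 603 and Clec10a 208 to 511.

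UMIs of 2 or more of these genes were found in 763 of the 975 macrophages (78.3%). Of the 975, 34 (3.49%) had a UMI of none of the 10 genes, and 289 (29.6%) had UMIs of 5 or more. Cd209f and Cd209g UMIs occurred together in 119 macrophages, 50.6% of those with Cd209f and 77.8% of those with Cd209g. Reads from stretches that this pair shares cannot be assigned to either gene. Cd163 and Lyve1 occurred together in 220, which were 43.9% of the macrophages with Cd163 and 73.1% of those with Lyve1. Cells with more UMIs show more genes, so these shares depend on depth, and the part of doublets was not tested. After thinning, a UMI of Mgl2 was found in 18.8% to 34.2% of macrophages and of Clec10a in 16.5% to 29.3%, against at most 0.218% and 0.247% of microglia. The Cd209 genes were found in 0.851% to 14.9% of macrophages and in at most 0.166% of microglia.

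Across cell classes, macrophages had the highest level in 35 of the 40 combinations of gene and library, counting classes of at least 20 cells. The exceptions were Cd209a in PBS, Monomer and PFF + AZD1480 and Mgl2 in Monomer, which were highest in cells of the dendritic list, and Cd209d in PFF + VH, which was highest in monocytes at 58.6 CPM on 7 UMIs. With the gate on thinned cells and with the mean over cells, macrophages were highest in the first 4 of these exceptions too, in 39 of 40 combinations. Microglia were at 4.85 to 11.8 CPM for Mrc1 and at or below 2.37 CPM for each of the other 9 genes. Because microglia were so many, they still held 11.5% to 31.04% of the Mrc1 UMIs of a library. The unassigned cells held 6.71% to 27.6% of the Mgl2 UMIs.

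The dendritic list (Flt3, Zbtb46, Ccr7, Xcr1, Clec9a, Fscn1 and Wdfy4) gated 524 cells, but the data went against that name. Their list UMIs were led by Fscn1 (481 to 693 CPM) and Wdfy4 (308 to 1062 CPM), both also present in microglia, and they carried 1238 to 2480 CPM of Cx3cr1, Gpr34 and Olfml3. Macrophages carried similar sums of these microglial genes. The dendritic list was below macrophages in PBS (1238 against 1511 CPM) and Monomer (1534 against 1947). It was above them with PFF + VH (2480 against 1763) and PFF + AZD1480 (1948 against 1630.5). A narrower gate without Fscn1 and Wdfy4, chosen after the data were seen, asked for MHC class II as well and kept 59 cells, namely 15 from PBS, 19 from Monomer, 8 from PFF + VH and 17 from PFF + AZD1480. These microglial genes summed to 152 to 489 CPM in these cells. Blood endothelial markers summed to 416 CPM in those of Monomer, most of it Flt1 (365 CPM), and to 0 in PBS and PFF + AZD1480, and monocyte markers to 303 CPM in those of PFF + AZD1480 and 0 in PBS. The cells are named by the gate alone, without a check on markers outside it, and the part of other RNA in their values was not tested.

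In the 3 libraries with at least 10 such cells, Mgl2 was at 715 CPM in PBS (578 to 875), 1437 in Monomer (1243 to 1652) and 875 in PFF + AZD1480 (712 to 1063). Cd209a, the relative of DC-SIGN known from mouse dendritic cells, was at 540, 978 and 572 CPM. Both lay above the macrophages of the same library in each case. Clec10a was at 198, 190 and 95.3 CPM there, below macrophages each time, and Mrc1 was at 106 to 268 CPM. Lyve1, Cd209f and Cd209g had no UMI in any of the 59 cells, which by 3 counts allows up to 22.8 CPM in PBS, 21.9 in Monomer, 86.4 with PFF + VH and 26.0 with PFF + AZD1480. These are few cells, and the 8 of PFF + VH gave 13 UMIs of Mgl2 and 21 of Cd209a.

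A few values stood outside these classes. Cd209d, known as SIGNR3, reached 494 CPM in monocytes of the Monomer library, on 27 UMIs in 6 cells, and had 0 monocyte UMIs in PBS and PFF + AZD1480. Mgl2 was at 50.9 CPM in neutrophils of PFF + AZD1480 on 22 UMIs, against 0 to 9.19 CPM in neutrophils of the other libraries.

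**Figure D2:**
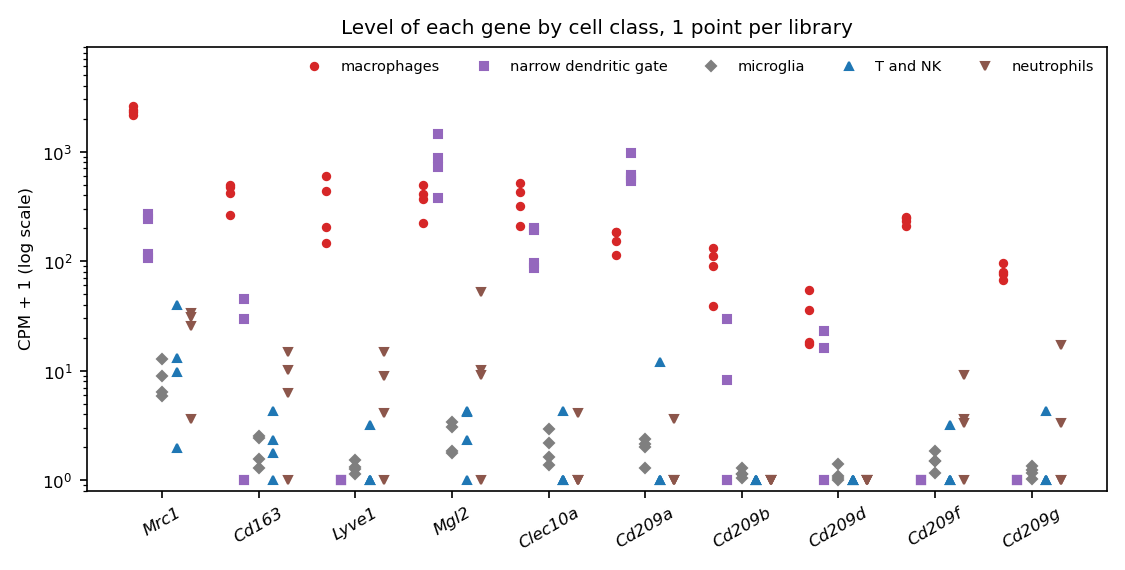
Level of each gene by cell class as CPM + 1 (log axis), 1 point per library, for macrophages, the narrow dendritic gate, microglia, T and NK cells, and neutrophils. Macrophages lie highest for Mrc1, Cd163, Lyve1 and Cd209f, and the narrow dendritic gate lies above macrophages for Mgl2 and Cd209a.

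The genes with the most similar patterns were ranked by Pearson's r of log2(CPM + 10) over 25 points, each a class of at least 20 cells in 1 library, among 14384 genes. Points of 1 library share its depth, and r is given as a description. Only 1 point per library was macrophages, and the 10 genes were picked by their levels there. Any gene found mainly in macrophages can reach a high r from the difference between classes. The ranking therefore does not show whether genes vary together among macrophages. Cd209f followed Cd209g (r = 0.987), C4b (0.987) and Pla2g2d (0.986), a secreted phospholipase. Cd163 followed Colec12 (0.987), a scavenger receptor, Serpinb8 (0.985) and Lyve1 (0.979), and Lyve1 followed Colec12 (0.980), Cd163 (0.979) and Fcna (0.978), a ficolin. Mrc1 was closest to Dab2 (0.966), an endocytic adaptor, and Cd209b to Ccl8 (0.967). Mgl2 was closest to Sh3pxd2b (0.934), Shtn1 (0.930) and Cd209a (0.929), while Clec10a was closest to Dab2 (0.941) and Msr1 (0.941), a scavenger receptor. Cd209a was closest to Clec4b1 (0.959), another C-type lectin gene, and Cd209d to Fkbp1b (0.930).

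Macrophages were next divided by their RNA for MHC class II, the molecules that present antigen to CD4 T cells. Those with at least 20 UMIs of H2-Aa, H2-Ab1 and H2-Eb1 per 10000 were called high. They were 36.7% of macrophages in PBS and 50.6% in Monomer, and 26.4% with PFF + VH and 31.9% with PFF + AZD1480. Of all macrophages of these libraries, 19, 18, 41 and 16 cells lay between 10 and 40 per 10000, so few cells outside PFF + VH were near the boundary.

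Lyve1, Cd209f and Cd209g were lower in high than in low cells of every library. Lyve1 was at 691, 302, 245 and 909 CPM in low cells of PBS, Monomer, PFF + VH and PFF + AZD1480 and at 47.3, 15.9, 73.2 and 100.4 CPM in high cells. Cd209f was at 399.8, 497, 294 and 320.4 CPM in low cells and at 29.1, 10.6, 103 and 26.0 in high cells. The ratio of high to low was 0.0526 to 0.299 for Lyve1, 0.0213 to 0.352 for Cd209f and 0.0102 to 0.285 for Cd209g. The values of PFF + VH rest on cells near the boundary. With the boundary at 50 per 10000 its ratio was 0.0246 for Lyve1 in place of 0.299, 0.0404 for Cd209f in place of 0.352 and 0.0672 for Cd209g in place of 0.285, and the ranges over libraries were 0.0246 to 0.0550, 0.0262 to 0.0778 and 0.0125 to 0.114.

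The ratio was 0.147 to 0.479 for Cd163, 0.122 to 0.655 for Clec10a and 0.0867 to 0.676 for Cd209a, and with the boundary at 50 it was 0.136 to 0.415, 0.132 to 0.365 and 0.1001 to 0.460. Cd209b ranged from 0.0374 to 0.909, the last in PFF + VH, where it was 0.0448 on 1 UMI in high cells with the boundary at 50. Mrc1 kept 1357 to 1633 CPM in high cells against 2322 to 3259 in low cells, a ratio of 0.453 to 0.703. Cd209d was at 0 UMIs in high cells of PFF + AZD1480 and above low cells in PFF + VH, at 73.2 against 47.5 CPM on 17 and 33 UMIs, a direction that turned with the boundary at 50, where those high cells had 0 UMIs.

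Mgl2 did not share this direction. It was at 389, 333, 349 and 725 CPM in high cells and at 358, 503, 180 and 350.0 CPM in low cells, so that it was higher in high cells in PBS (ratio 1.09), PFF + VH (1.94) and PFF + AZD1480 (2.07) and lower in Monomer (0.662). In PBS the intervals overlapped (339 to 445 in high and 319 to 401 in low cells), so that difference was within counting error. In all, 4 of the 40 combinations of gene and library were higher in high cells, and 3 of these were Mgl2. With the boundary at 50 these 3 alone were left.

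**Figure D3:**
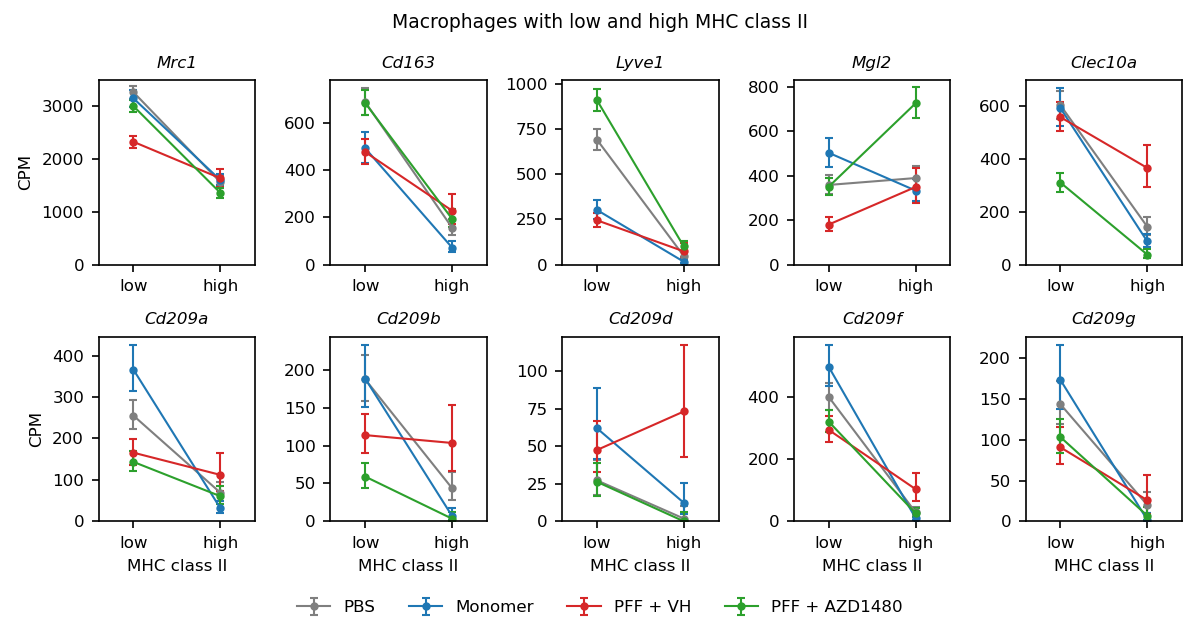
CPM of each gene (1 panel per gene, axes from 0) in macrophages with low and high MHC class II, 1 line per library, with exact 95% Poisson intervals. The lines fall from low to high for Lyve1, Cd209f and Mrc1 in every library, and rise for Mgl2 in 3 of the 4.

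PFF + AZD1480, with JAK inhibition after PFF, was compared with PFF + VH over hashtags, a test between 1 library of each. A single hashtag was called in 198 PFF + VH macrophages, 56, 72, 26 and 44 per hashtag, and in 181 PFF + AZD1480 macrophages, 43, 51, 9, 51 and 27 per hashtag. UMIs were summed over the macrophages of a hashtag and tested with edgeR's quasi-likelihood test over 2691 genes, with Benjamini-Hochberg adjustment at 0.05. Cd209b and Cd209d did not pass the filter on low counts, and 0 of the other 8 genes passed the threshold, against 1.49% of all genes tested (0.632% higher and 0.855% lower with AZD1480). At an unadjusted p under 0.05 there were 313 of the 2691 genes, Mgl2 and Clec10a among them. DESeq2, run as an alternative, called Mgl2 alone of these 8.

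Mgl2 in macrophages was at 255, 223, 503 and 245 CPM in the 4 PFF + VH hashtags and at 596, 432, 1431, 427 and 683 CPM in the 5 PFF + AZD1480 hashtags. The AZD1480 hashtags lay above 3 of the 4 VH hashtags, and the third VH hashtag overlapped them. The log2 fold change was 1.15 (SE 0.39, edgeR adjusted p = 0.234). It passed under 4 of 24 alternatives, among them DESeq2 (adjusted p = 0.0471), hashtags called after normalisation within cells (0.0482) and no filter on low counts (9.67e-05). The adjusted p lay between 0.0633 and 0.515 when 1 hashtag was left out.

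Clec10a was at 1141, 555, 636 and 201 CPM with VH and at 256, 214, 56.1, 156 and 332 CPM with AZD1480. Of the VH hashtags 3 lay above all AZD1480 hashtags, and the fourth overlapped them. The log2 fold change was -1.54 (SE 0.49, edgeR adjusted p = 0.223). It passed under 3 of 23 alternatives, among them no filter on low counts (edgeR adjusted p = 0.0319). Without the fourth VH hashtag it was -1.83 (SE 0.30) with an edgeR adjusted p of 0.00651, and leaving out any other hashtag gave no call.

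Cd163 was at 503, 512, 583 and 230 CPM with VH and at 369, 574, 814, 714 and 910 CPM with AZD1480, and its log2 fold change was 0.53 (SE 0.27, edgeR adjusted p = 0.472). Lyve1 was at 128, 339, 437 and 21.6 CPM with VH and at 771, 325, 112, 694 and 815 CPM with AZD1480. Both ranges overlapped, and hashtags of the same arm differed widely in Lyve1. Its log2 fold change was 1.38 (SE 0.69, edgeR adjusted p = 0.507), so the difference did not pass the test.

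Mrc1 was the steadiest, at 2684, 2414, 2529 and 2008 CPM with VH and at 2155, 2630, 2273, 2572 and 3309 CPM with AZD1480. Its log2 fold change was 0.11 (SE 0.14, edgeR adjusted p = 0.853). No difference in this gene was detectable at this depth.

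The Cd209 genes overlapped between arms. Cd209a was at 416, 104, 106 and 64.8 CPM with VH and at 81.2, 129, 84.2, 132 and 171 CPM with AZD1480, with a log2 fold change of -0.52 (SE 0.52, edgeR adjusted p = 0.790). The first VH hashtag set this direction, since the value without it was 0.40. Cd209f was at 275, 366, 464 and 101 CPM with VH and at 166, 245, 84.2, 183 and 237 CPM with AZD1480, with a log2 fold change of -0.58 (SE 0.32, edgeR adjusted p = 0.517). Cd209g was at 141, 77.02, 106 and 64.8 CPM with VH and at 89.3, 138, 28.1, 27.9 and 94.8 CPM with AZD1480, with a log2 fold change of -0.19 (SE 0.39, edgeR adjusted p = 0.930) that turned positive without the first VH hashtag (0.07) or the fourth AZD1480 hashtag (0.13). Of the untested genes, Cd209b was at 275, 42.4, 79.5 and 101 CPM against 64.9, 57.9, 0, 27.9 and 19.0, and Cd209d at 141, 27.0, 66.2 and 14.4 CPM against 8.12, 17.8, 0, 27.9 and 19.0. For none of the 10 genes were the hashtags of the arms free of overlap in macrophages, where 2.45% of the tested genes lay wholly higher and 2.64% wholly lower with AZD1480.

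**Figure D4:**
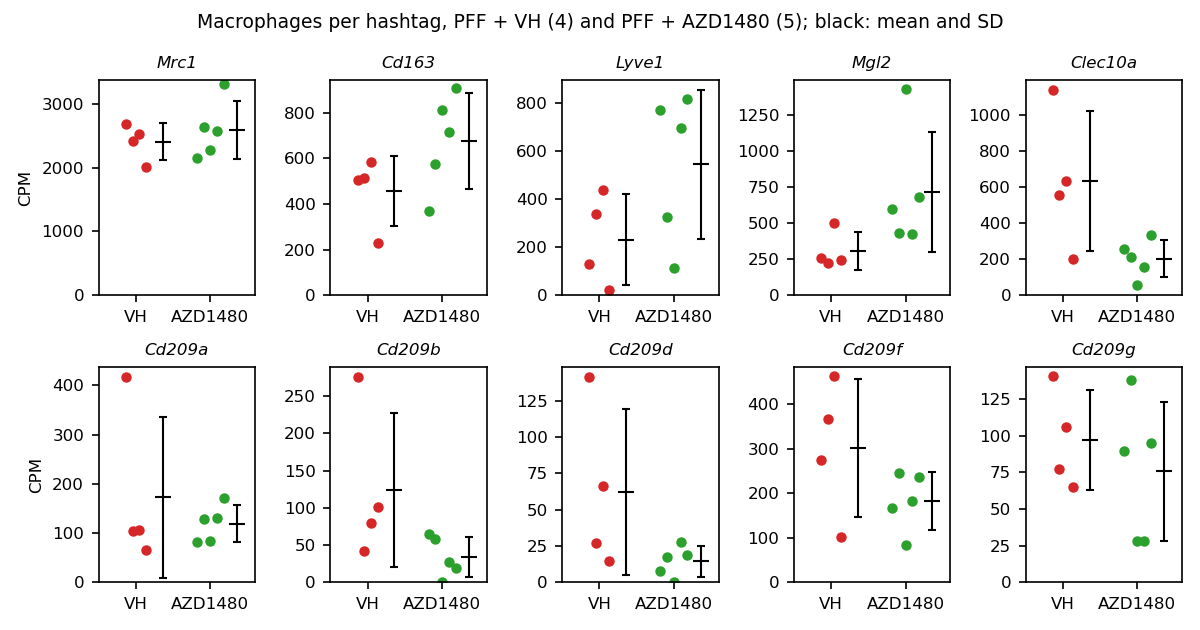
CPM of each gene in macrophages per hashtag (1 panel per gene, axes from 0), 4 hashtags of PFF + VH and 5 of PFF + AZD1480, with the mean and SD of each arm in black. The arms overlap for each gene, and for Mgl2 the third hashtag of each arm lies highest, at 503 and 1431.

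The galactose-type lectins were also set against each other within each hashtag, a measure chosen after their values were seen and given without a test. Of the UMIs of Mgl2 and Clec10a together, Mgl2 made up 18.3%, 28.7%, 44.2% and 54.8% in the VH hashtags and 70.0%, 66.9%, 96.2%, 73.3% and 67.3% in the AZD1480 hashtags. The means were 36.5% ± 16.2 (SD, n = 4) and 74.7% ± 12.3 (SD, n = 5), while neither gene alone was free of overlap or passed the test above. A share of 2 genes picked for opposite differences is made to part the arms, so nothing is read from their separation. Over all single-hashtag cells the shares overlapped, at 28.4% to 68.4% with VH and 65.8% to 87.3% with AZD1480. The shares in whole libraries were 46.7% in PBS and 56.5% in Monomer macrophages, between the 30.3% of PFF + VH and the 70.3% of PFF + AZD1480. The 96.2% rests on 51 and 2 UMIs in 9 cells, and reads that fit both genes cannot be assigned.

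In macrophages with high MHC class II, Mgl2 was at 195, 542, 344 and 442 CPM with VH and at 866, 644, 1704, 603 and 1074 CPM with AZD1480. These arms did not overlap, as was so for 1.26% of genes in that direction and 1.52% in the other, while those of the other 9 genes did. The values rest on few cells, with 6, 46, 6 and 12 UMIs of Mgl2 in the VH hashtags and 21 UMIs in the 4 cells of the fifth AZD1480 hashtag. In these cells Mgl2 made up 84.0% to 100% of the lectin pair with AZD1480 and 17.1% to 75.0% with VH. In macrophages with low MHC class II the arms overlapped, at 43.4% to 100% and 9.84% to 48.9%. The 100% is 2 UMIs in the third AZD1480 hashtag, and the next highest share was 62.2%. The share of macrophages that were high in MHC class II was 14.8% to 55.6% over AZD1480 hashtags and 21.4% to 38.9% over VH hashtags.

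**Figure D5:**
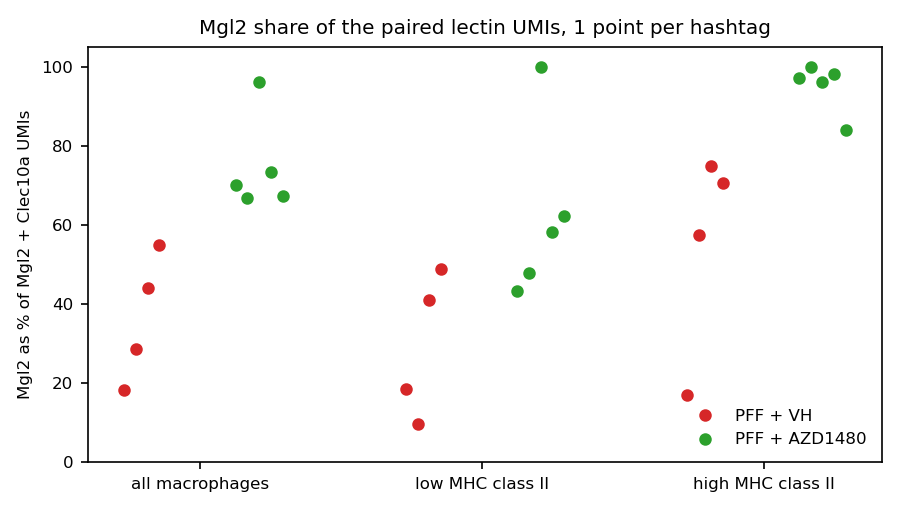
Mgl2 as a percentage of Mgl2 and Clec10a UMIs, 1 point per hashtag, in all macrophages and in those with low and high MHC class II. In all macrophages the VH points lie between 18.3% and 54.8% and the AZD1480 points between 66.9% and 96.2%.

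Summed over all cells with a single hashtag, without a gate on cell type, 9 of the 10 genes could be tested and only Mgl2 passed, where 25.3% of 14017 genes passed (11.6% higher and 13.6% lower). Only 52.0% of PFF + VH cells had a single hashtag, against 81.0% with AZD1480, and these VH cells were deeper than those left out (median 2916 against 1680 UMIs), so the hashtag calls of that library are less certain. In such sums fewer cells of a type and less RNA per cell cannot be told apart. Mgl2 was at 6.11, 4.84, 8.51 and 5.50 CPM with VH and at 11.2, 10.8, 5.60, 12.5 and 12.6 CPM with AZD1480, so that 4 of 5 AZD1480 hashtags lay above all VH hashtags. The log2 fold change was 0.71 (SE 0.23, edgeR adjusted p = 0.0480). The call was lost under 12 of 19 alternatives, among them leaving out any 1 of 7 of the 9 hashtags, with edgeR adjusted p between 0.0850 and 0.121 in those 7.

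Cd209b over all cells was at 3.02, 1.13, 0.916 and 1.12 CPM with VH and at 1.03, 0.951, 0.102, 0.518 and 0.252 CPM with AZD1480. Its log2 fold change was -1.31 (SE 0.49, edgeR adjusted p = 0.0737), and DESeq2 called it (adjusted p = 0.0485). The remaining 7 tested genes had log2 fold changes from -1.12 (Clec10a, SE 0.60, edgeR adjusted p = 0.221) to 1.48 (Lyve1, SE 0.85, edgeR adjusted p = 0.250).

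Among cells of the dendritic list only Cd209a had enough counts. Its log2 fold change was 0.04 (SE 1.15, edgeR adjusted p = 0.995), where 0.122% of 1637 genes passed, all higher with AZD1480. The share of single-hashtag cells in the macrophage gate was 1.15% ± 0.573 (SD, n = 4) with VH and 1.65% ± 0.582 (SD, n = 5) with AZD1480 (2-sided exact permutation test, p = 0.254). A single hashtag was called in 71.5% of macrophages with VH and 64.2% with AZD1480, against 52.0% and 81.0% of all cells. Of all kept cells, macrophages were 1.64% in PBS, 1.17% in Monomer, 0.804% with PFF + VH and 2.17% with PFF + AZD1480. The part of hashtag calling in the macrophage shares was not tested. Of single-hashtag cells the dendritic list held 0.475% ± 0.172 (SD, n = 4) with VH and 0.922% ± 0.132 (SD, n = 5) with AZD1480, without overlap (exact permutation test, p = 0.0159, the smallest these group sizes allow, adjusted 0.0317). A single hashtag was called in 38.9% of that list's cells with VH and 73.1% with AZD1480, against 52.0% and 81.0% of all cells. The part of this loss in the difference was not tested. Cells of that list had a median of 1761 to 4508 UMIs over VH hashtags and 5608 to 7149 over AZD1480 hashtags, and the difference was not called with the gate on thinned cells, where it fell from 0.447 to 0.284 percentage points. It was also not called with MULTIseqDemux (exact permutation test, adjusted p = 0.190), from at least 1000 UMIs or without microglial UMIs (0.0635 each).

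Related genes were taken as 5 lists. These were other scavenger and endocytic receptors, other C-type lectins with Siglec1, other border macrophage genes, IL-4, IL-10 and STAT response genes, and MHC class II genes. Clec7a was not analysed here. In macrophages 1.49% of all genes tested passed. There 1 of 11 tested scavenger and endocytic receptors fell with AZD1480, Cd36, a fatty acid and lipoprotein receptor (log2 fold change -1.25, SE 0.26, edgeR adjusted p = 0.0148). Of 19 tested border macrophage genes, Cd14, the lipopolysaccharide co-receptor, rose (0.94, SE 0.21, edgeR adjusted p = 0.0334) and Selenop, a selenium carrier, fell (-0.73, SE 0.15, edgeR adjusted p = 0.0142). None of 8 genes of the list of C-type lectins with Siglec1, 6 IL-4, IL-10 and STAT response genes or 6 MHC class II genes passed. The medians of these 5 lists were 0.07, 0.01, 0.10, 0.42 and 0.78 on the log2 scale, against -0.01 over all genes tested and -0.04 over the 8 receptors.

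Over all single-hashtag cells, 11.6% of all genes tested rose and 13.6% fell. Of 16 genes in the list of scavenger and endocytic receptors 3 rose (Mertk by 0.52 on the log2 scale, Scarb1 and Stab1). In the same list 4 fell, with Cd36 at -1.26 and Axl at -0.60. In the list of C-type lectins with Siglec1 1 of 12 fell, Clec2d at -0.41. Of 20 border macrophage genes 3 rose and 3 fell, led by Hpgd at 0.96 and Ms4a6c at -0.69. Of 19 response genes 2 rose (Il10ra and Stat6) and 3 fell, Socs1 at -0.78, Cish at -0.65 and Socs3 at -0.34. Of 7 MHC class II genes 3 fell, namely H2-DMb1, Cd74 and H2-DMa, and all 7 had negative values, while the 6 tested in macrophages all had positive ones without passing. In these sums microglia made up most cells.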

How the data were processed

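Single-cell UMI counts per gene and barcode were used as deposited by the authors, who made them with Cell Ranger (release 7.0.1 in the file headers) on mm10 from droplet 3′ libraries. Whether intronic reads were counted is not given in the sources used here. Hashtag counts are part of the same matrices, and 0 columns went unmatched. Cells with 500 to 15000 UMIs, 250 to 5000 genes and at most 10% mitochondrial UMIs were kept, as in the study. Each cell was given the class whose marker list had the most UMIs, with at least 3 UMIs over 2 genes (2 UMIs for the dendritic list). The narrower dendritic gate took any UMI of its list as enough, with at least 20 MHC class II UMIs per 10000. Hashtags were called with HTODemux in Seurat 5.3.0 (quantile 0.99). For the tests, counts were summed per hashtag with at least 5 cells of the class, filtered with filterByExpr and tested with edgeR 4.0.16 (TMM, robust quasi-likelihood fit), with Benjamini-Hochberg adjustment over all genes kept. CPM per hashtag after the split by MHC class II had no such minimum. DESeq2 1.42.0, other hashtag callers, gates, filters and left-out hashtags were alternatives. Levels of libraries are CPM of summed counts with exact 95% Poisson intervals, which cover counting error only, and are not scaled by length. On simulated data the test recovered 51% of 2-fold changes in macrophages and 79% in all cells. The 10 genes, the lists and the marker genes were chosen with earlier results of these data known. All 10 genes are named, and of each list up to 3 genes per direction past the threshold. For each gene 3 similar genes were ranked, of which the closest are named. A gene of the microglial check and a gene of the response list are not reported here.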

Additional observations from a re-analysis of the deposited data

Results flagged for a closer look

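Over 44 groups of hashtags tested for 1 value far from the others (Dixon's test at the 95% level, which chance passes in about 1 in 20), 7 were found. In macrophages, the third PFF + VH hashtag stood apart for Mgl2 at 503 CPM, the third PFF + AZD1480 hashtag for Mgl2 at 1431 CPM and the first PFF + VH hashtag for Cd209a at 416 CPM. Over all single-hashtag cells, the third PFF + AZD1480 hashtag was lowest for Mgl2 at 5.60 CPM and for Mrc1 at 15.4 CPM, and the first PFF + VH hashtag was highest for Cd209b at 3.02 CPM. The third PFF + AZD1480 hashtag also had the lowest share of macrophages, 0.641%, on 9 cells, so 4 of the 7 values belong to that hashtag.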

How the results depend on the processing

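Of 280 alternative levels in macrophages of whole libraries, 83 lay outside the counting interval of the value given: 32 of 40 with the gate on thinned cells, 32 of 40 without microglial UMIs, 15 with the mean over cells and 4 without an upper limit. Of 184 alternative values for the receptors in macrophages, 173 kept direction and call, 7 gained a call and 4 changed sign. In macrophages 40 genes passed; 62 passed with hashtags normalised within cells, 10 with MULTIseqDemux, 7 with the gate on thinned cells, 0 of 313 tested with a gate that allowed no microglial UMIs (12 at an unadjusted p under 0.05 by edgeR), 8 in macrophages with low MHC class II, 84 without the filter, 2 with thinned counts, and 19 to 44 when 1 hashtag was left out. Cd209g there was 0.22 in macrophages with low MHC class II. Leaving out 1 hashtag gave -0.79 to 0.40 for Cd209a and -0.56 to 0.13 for Cd209g. Mgl2 and Clec10a also passed without the filter (edgeR adjusted p = 9.67e-05 and 0.0319), and Cd209b then passed as well. Over all single-hashtag cells, leaving out 1 gave -0.60 to 0.093 for Cd209a, -0.67 to 0.19 for Cd209f, -0.26 to 0.37 for Cd209g and -0.10 to 0.33 for Mrc1. Cd209g there was -0.047 with normalisation within cells, -0.083 with MULTIseqDemux and -0.033 from at least 1000 UMIs, and Mrc1 -0.30 with MULTIseqDemux. For cells of the dendritic list, 2 genes passed, against 1 with normalisation within cells, 13 without the filter and 1 to 4 with 1 hashtag left out. Cd209a there was -0.060 with normalisation within cells, -0.13 with DESeq2, -0.00048 from at least 1000 UMIs, -0.24 without an upper limit and -0.54 to 1.02 with 1 hashtag left out. The difference in their share was 0.378 percentage points with MULTIseqDemux, 0.484 from at least 1000 UMIs, 0.284 with thinned cells, 0.124 without microglial UMIs, and 0.394 to 0.528 with 1 hashtag left out, none of which passed, though the left-out designs gave the smallest p they allow (adjusted 0.0571 or 0.0714). With hashtag number as a replicate block, 10 genes passed in the dendritic list, where Cd209a was -0.26; over all cells Cd209g was -0.23 and Mrc1 -0.069, Cd209b passed (-1.24, edgeR adjusted p = 0.0461) and Mgl2 was no longer called (0.66, edgeR adjusted p = 0.258), while Mgl2 (1.12) and Clec10a (-1.57) passed in macrophages (edgeR adjusted p = 0.00221 and 0.0184). The numbers are not stated to pair hashtags of the libraries, and deviations of equal numbers correlated at -0.0171 to 0.0255 in macrophages and -0.0454 to 0.151 over all cells. The cause of these changes was not tested. The dendritic list was not fitted with MULTIseqDemux or without microglial UMIs, which left too few hashtags. Narrow dendritic cells, macrophages with low MHC class II and thinned counts were added after the data were seen.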
